A study of Mus musculus with 12 samples.

Results

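The genes described are 30 genes of the complement system in mouse liver, chosen by gene symbol from a list that names the starting components of the classical and lectin pathways, the components of the alternative pathway with C3, the terminal components, the regulators and the anaphylatoxin receptors. All 30 of the 30 symbols were found among the 54532 genes of the table. By role, 7 belong to classical initiation (*C1qa*, *C1qb*, *C1qc*, *C1ra*, *C1s1*, *C2* and *C4b*), 5 to lectin initiation (*Masp1*, *Masp2*, *Mbl1*, *Mbl2* and *Fcna*), 4 to the alternative pathway with C3 (*C3*, *Cfb*, *Cfd* and *Cfp*), 7 to the terminal pathway (*Hc*, *C6*, *C7*, *C8a*, *C8b*, *C8g* and *C9*), 5 to the regulators (*C4bp*, *Cfi*, *Cd55*, *Cd59a* and *Serping1*) and 2 to the receptors (*C3ar1* and *C5ar1*).

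Complement is a cascade of plasma proteins that marks particles for uptake, releases small peptides that attract and activate leukocytes, and builds a pore in target membranes. Antibody-bound C1, sugar-bound lectins with their serine proteases, and the self-amplifying alternative loop all lead to cleavage of C3 and then of C5, after which C6, C7, C8 and C9 assemble on C5b into the membrane attack complex. Hepatocytes make most of the circulating components, whereas the C1q chains and properdin come mainly from macrophages and other myeloid cells, and factor D is known above all as a product of adipocytes.

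RNA from the livers of 12 male C57BL/6J mice was sequenced, 3 mice in each of 4 diet groups. ND-fed mice received a normal diet, control mice a high-fat diet (HFD), HYA-treated mice HFD with 1% HYA, and LA-treated mice HFD with 1% LA. HYA is a hydroxy fatty acid that intestinal lactic acid bacteria form from linoleic acid (LA), and the comparisons address how HFD feeding and each additive were accompanied by changes in the liver transcriptome. All groups were fed their diets for 26 weeks from an age of 5 weeks, and HYA- and LA-treated mice shared with control mice the HFD.

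Levels are given as FPKM, fragments per kilobase of a gene's length after scaling to library size, so that levels of different genes are comparable per length. Between 17169064 and 25220880 fragments fell on genes in each mouse, and 3 fragments on a gene of 2 kb corresponded to at most 0.0944 FPKM, a limit that covers counting error only. Differences are on the scale of log2(FPKM + 1), which understates the change of low genes, and a gene was called when its Benjamini-Hochberg adjusted p-value in limma was under 0.05 over the 11083 genes that averaged at least 1 FPKM. Of the 30 complement genes 29 were tested. *C7* was not, with 0.277 to 0.886 FPKM in the 12 mice. Nothing says whether mice shared a cage or litter, so p-values measure the spread between these mice. The labelled tissue carried its defining transcripts, with *Alb* at 19066 to 30137 FPKM.

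Complement transcripts covered more than 3 orders of magnitude. *C3*, whose product all pathways converge on, ranked first in every group, with 1542 ± 77.0 FPKM (mean ± SD, n = 3) in ND-fed and 822 ± 40.7 FPKM in control mice. The next ranks in ND-fed mice were held by *Serping1*, *C4b*, *Cfi*, *C8a*, *Mbl2*, *C8g* and *C9*, at 330.0 ± 19.2 to 204 ± 16.7 FPKM. The lowest levels were those of *C7*, *C3ar1* and *C5ar1*. *C8b* took rank 12 of the 30 genes in ND-fed mice and rank 23 in control mice, while *Mbl2* moved from rank 6 to rank 2. Summed over the 30 genes, the level was 4308 to 4676 FPKM in ND-fed mice, 2940 to 3181 FPKM in control mice, 3346 to 3357 FPKM in HYA-treated mice and 2992 to 3251 FPKM in LA-treated mice, so that every ND-fed mouse exceeded every HFD-fed mouse and every HYA-treated mouse exceeded every control and LA-treated mouse. After rescaling to TPM, which gives each mouse the same total, the sum was 10207 to 10936 TPM in ND-fed, 8592 to 8883 TPM in control, 8535 to 8788 TPM in HYA-treated and 8492 to 9063 TPM in LA-treated mice, so that the ND-fed mice stayed apart and the 3 HFD groups overlapped.

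The comparison of control with ND-fed mice asks what HFD feeding changed. Most secreted components were lower in control mice, among them the terminal genes *C8b* (0.154 times the ND level), *C8a* (0.428 times) and *C6* (0.483 times), the weakly expressed *Cfd* (0.249 times) and *C3* (0.533 times), whereas the 3 C1q chains, the anaphylatoxin receptors and the mannose-binding lectin *Mbl2* were higher. Of the 29 tested genes 18 were lower (62.1%, against 19.1% of all genes tested) and 6 were higher (20.7%, against 16.2% of all genes). The median log2 difference over the 29 genes was -0.30, beside -0.04 over all genes. With a log2 fold of more than 1 required as well, 4 of the 18 remained past the threshold (*C8b*, *C8a*, *C6* and *Cfd*) and none of the 6. The shares of all genes were 1.63% and 2.25%. This split holds for the log2(FPKM + 1) scale, which understates low genes such as *C5ar1* (mean 0.436 FPKM in ND-fed and 1.49 FPKM in control mice). After rescaling to TPM, *C5ar1* differed by 1.33 (limma adjusted p = 6.79e-04), *C8b* by -2.44 and *Cfd* by -1.63. *C8a* at -0.98 and *C6* at -0.80 were then inside the threshold. Levels in control mice lay wholly below those in ND-fed mice for 17 genes (25.7% of all genes) and wholly above for 5 (19.9%). When FPKM was rescaled to TPM, the median over all genes moved to 0.17, all genes split into 3792 higher and 732 lower instead of 1795 and 2115, and the complement genes into 7 higher and 13 lower. In whole liver, fewer cells of a type and less RNA per cell cannot be told apart. Of the 7 hepatocyte markers found, 6 were also lower in control mice, with a summed level of 46070.0 to 47762 FPKM in ND-fed and 31418 to 36065 FPKM in control mice and a median log2 difference of -0.51, and their part in the lower complement levels was not tested.

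**Figure D1:**
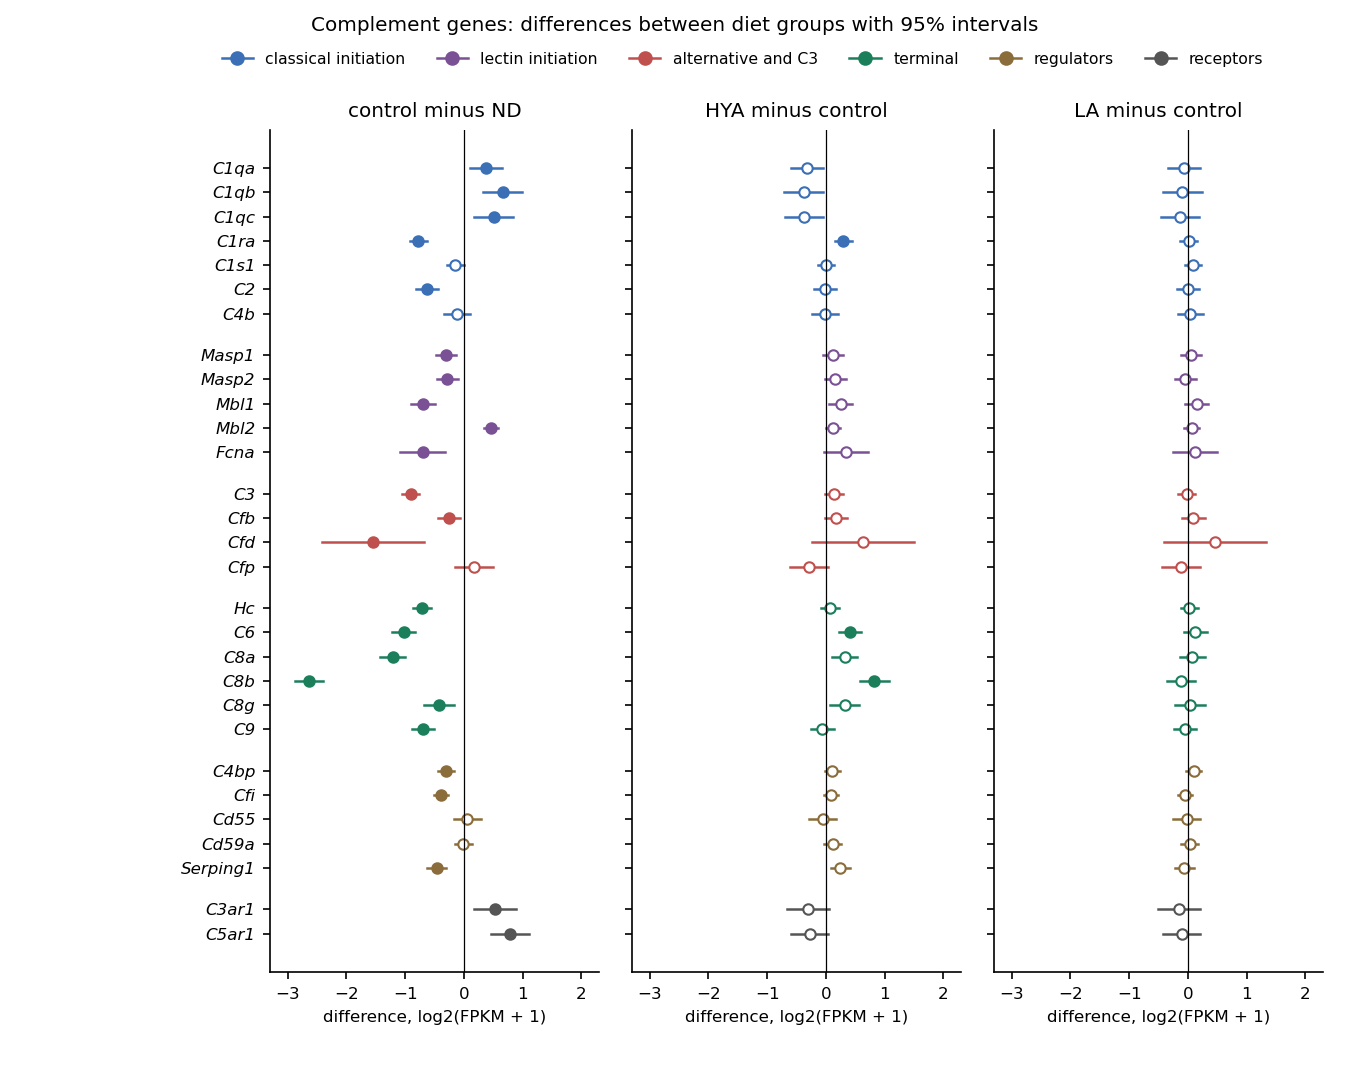
Differences of the 29 tested complement genes between diet groups on the log2(FPKM + 1) scale (x axis), control minus ND, HYA minus control and LA minus control, with 95% intervals from limma. Filled circles mark an adjusted p-value under 0.05, which 24 genes reach in the first panel, 3 in the second and none in the third, and colours give the role in the cascade.

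Among the terminal genes all 6 that were tested were lower in control than in ND-fed mice, with a median log2 difference of -0.87. *C8b*, which encodes the beta chain of C8, had 102, 102 and 119.8 FPKM in the ND-fed mice, 13.5, 19.3 and 17.01 FPKM in control mice, 30.1, 28.9 and 30.9 FPKM in HYA-treated mice and 14.6, 15.3 and 15.5 FPKM in LA-treated mice. The ND-fed mice were far above all others, and the HYA-treated mice were above every control and LA-treated mouse. The log2 difference between control and ND-fed mice was -2.63 with a standard error (SE) of 0.11 (adjusted p = 1.32e-07 in limma), and only 20 of the 11083 genes had a lower value.

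*C8a* encodes the alpha chain, which is joined to gamma and, with beta, inserts into the membrane. Its levels were 218, 210.3 and 255 FPKM in ND-fed mice, 93.7, 103 and 95.6 FPKM in control mice, 119.6, 116 and 131 FPKM in HYA-treated mice and 117, 97.1 and 95.3 FPKM in LA-treated mice. ND-fed mice did not overlap with the other groups, and 1 LA-treated mouse lay among the HYA-treated mice. Control mice differed from ND-fed mice by -1.21 (SE 0.10, limma adjusted p = 9.05e-06). *C8g*, the lipocalin-like gamma chain that is not needed for lysis, showed the smallest difference of the 3 chains, at -0.43 (SE 0.11, limma adjusted p = 0.0147). It had 209, 214 and 217 FPKM in ND-fed and 132, 183 and 165 FPKM in control mice, without overlap. Rescaled to TPM, *C8g* was no longer called (-0.19, adjusted p = 0.141).

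*C6*, the first component to bind C5b, had 69.4, 75.6 and 83.8 FPKM in ND-fed mice, 36.6, 34.1 and 39.8 FPKM in control mice, 51.2, 47.2 and 49.4 FPKM in HYA-treated mice and 44.7, 37.5 and 38.7 FPKM in LA-treated mice. In FPKM each HYA-treated mouse was above each control and LA-treated mouse (HYA against LA 0.17 after rescaling to TPM, limma adjusted p = 0.283) and below each ND-fed mouse. The difference between control and ND-fed mice was -1.03 (SE 0.09, limma adjusted p = 1.51e-05). *Hc*, which encodes C5, fell from 186 ± 12.8 FPKM to 113 ± 5.53 FPKM (log2 difference -0.71, SE 0.07, limma adjusted p = 3.37e-05), and *C9*, whose product polymerizes into the pore, fell from 204 ± 16.7 FPKM to 125 ± 5.75 FPKM (-0.70, SE 0.09, adjusted p = 1.56e-04). For both genes the HYA- and LA-treated mice stayed near the control mice, with 108 to 124 FPKM for *Hc* and 107 to 131 FPKM for *C9*. *C7* is known to be made largely outside hepatocytes, and its levels of 0.539 ± 0.234 FPKM in ND-fed and 0.565 ± 0.0845 FPKM in control mice overlapped.

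**Figure D2:**
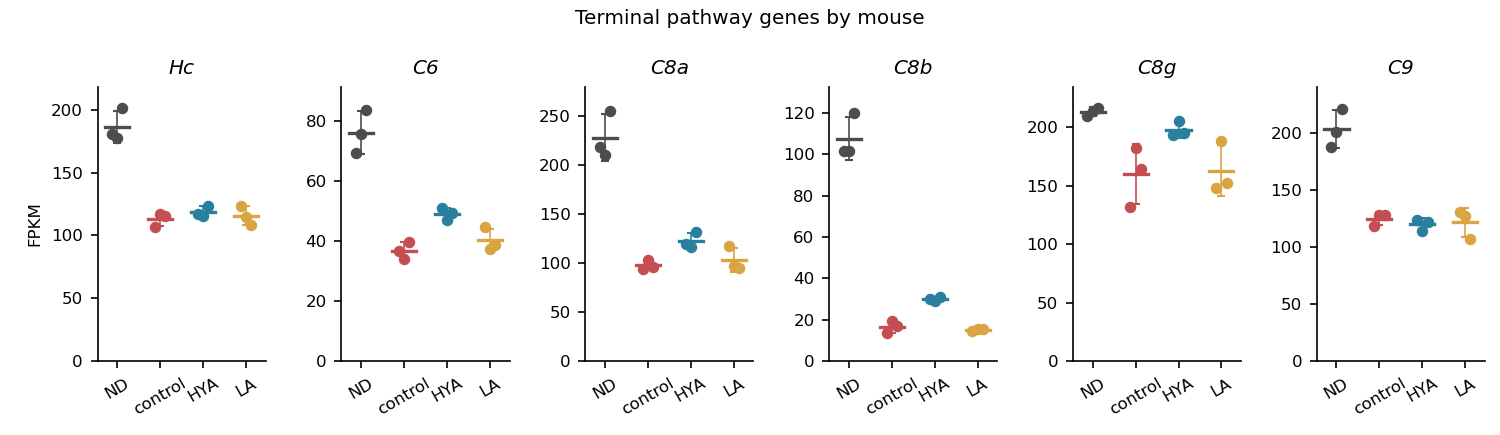
FPKM (y axis, linear from 0) of the 6 tested terminal pathway genes in each of the 12 mice by diet group, with a point per mouse, the mean as a line and the SD as a bar. *C8b* falls from 102 to 119.8 FPKM in ND-fed mice to 13.5 to 19.3 FPKM in control mice, and its 3 HYA-treated mice at 28.9 to 30.9 FPKM lie above all control and LA-treated mice.

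*C8a* (chromosome 4, 104815679 to 104876398, minus strand) and *C8b* (chromosome 4, 104766317 to 104804548, plus strand) are neighbours on build GRCm38 whose 3′ ends face each other, and *C6* (chromosome 15, 4727175 to 4814967), *C7* (chromosome 15, 4988762 to 5063740) and *C9* (chromosome 15, 6445327 to 6498751) share chromosome 15. The 250 bases before the transcription start of *C8b*, *C8a*, *Hc* and *C9* are shown because these genes fell together but by unequal amounts. The sequences come from RefSeq on GRCm38.p6, where 23 of the 30 genes had an entry, and are written 5′ to 3′ on the strand of the gene at chr4:104766067-104766316 (plus), chr4:104876399-104876648 (minus), chr2:35061413-35061662 (minus) and chr15:6445096-6445345 (plus). Capitals mark matches, on either strand and without overlap, to 4 motifs: the STAT palindrome TTCNNNGAA, the HNF1 core GTTAAT, the CCAAT box CCAAT and the TATA box TATAAA.
C8b: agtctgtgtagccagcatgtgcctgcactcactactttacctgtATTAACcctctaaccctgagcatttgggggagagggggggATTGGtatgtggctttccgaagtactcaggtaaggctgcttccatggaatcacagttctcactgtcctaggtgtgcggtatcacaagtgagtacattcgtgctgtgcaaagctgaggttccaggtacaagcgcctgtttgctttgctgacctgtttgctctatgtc
C8a: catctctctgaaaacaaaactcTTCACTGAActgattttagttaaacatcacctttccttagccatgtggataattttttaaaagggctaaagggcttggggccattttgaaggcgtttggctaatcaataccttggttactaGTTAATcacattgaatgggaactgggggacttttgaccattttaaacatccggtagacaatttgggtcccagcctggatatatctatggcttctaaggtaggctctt
Hc: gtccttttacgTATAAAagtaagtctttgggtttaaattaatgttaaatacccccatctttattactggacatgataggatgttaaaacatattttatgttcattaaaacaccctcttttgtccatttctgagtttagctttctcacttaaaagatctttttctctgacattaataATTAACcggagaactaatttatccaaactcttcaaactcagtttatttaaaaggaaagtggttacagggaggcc
C9: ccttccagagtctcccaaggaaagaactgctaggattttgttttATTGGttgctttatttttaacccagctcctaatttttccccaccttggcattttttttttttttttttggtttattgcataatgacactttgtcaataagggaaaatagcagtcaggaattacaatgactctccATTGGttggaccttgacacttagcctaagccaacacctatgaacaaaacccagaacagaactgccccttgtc

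In windows of 250 bases before to 50 bases after the start, TTCNNNGAA was found in 4 of the 25 promoters listed for the 23 genes (of *C1ra*, *C7*, *C8a* and *Masp2*), beside 8.3% of all 32851 promoters. GTTAAT was found in 8, those of *C1ra*, *C4bp*, *C7*, *C8a*, *C8b*, *Cd55*, *Cfp* and *Hc*, beside 7.1% of all promoters. CCAAT was found for *C5ar1*, *C8b*, *C9* and *Mbl1* (37.4% of all) and TATAAA for *C3*, *C3ar1*, *C7* and *Hc* (13.6% of all). The 4 printed promoters thus differed in which of these letters they held, which describes the windows only.

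Of the alternative pathway genes with *C3*, 3 of 4 were lower in control mice. *C3* had 1585, 1454 and 1589 FPKM in ND-fed mice, 782, 823 and 863 FPKM in control mice, 871, 929.6 and 911 FPKM in HYA-treated mice and 871, 779 and 781 FPKM in LA-treated mice. ND-fed mice stood apart from every HFD-fed mouse. In FPKM the HYA-treated mice lay above the control mice (a difference of 0.01 after rescaling to TPM, limma adjusted p = 0.936) and overlapped with the LA-treated mice. The difference between control and ND-fed mice was -0.91 (SE 0.07, limma adjusted p = 6.06e-06).

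*Cfd* encodes factor D, the protease that cleaves factor B. It was at 5.62, 8.33 and 5.67 FPKM in ND-fed mice, 2.07, 2.03 and 0.785 FPKM in control mice, 2.85, 5.09 and 1.62 FPKM in HYA-treated mice and 5.44, 1.32 and 1.90 FPKM in LA-treated mice. Control mice were below all ND-fed mice, whereas HYA- and LA-treated mice reached from the control range to just below the ND range. The difference between control and ND-fed mice was -1.54 (SE 0.40, limma adjusted p = 0.0118), with 15 fragments in the lowest mouse. Adipocyte markers were checked beside it. *Adipoq* was at 0.0412, 0.182 and 0.0806 FPKM in ND-fed mice and listed at 0 in every control mouse. *Retn* was at 0.0721, 0.239 and 0 FPKM in the same ND-fed mice and also listed at 0 in every control mouse. *Plin1* and *Lep* were listed at 0 in both groups. The *Adipoq* and *Retn* levels are near the limit of 3 fragments on a gene of 2 kb (0.0607 to 0.0944 FPKM), so their difference between the groups rests on very few fragments. The summed level of the 6 adipocyte markers was 8.92 to 12.3 FPKM in ND-fed and 78.4 to 109.6 FPKM in control mice. *Cidec* made up most of this sum, at 8.55 ± 1.87 FPKM in ND-fed and 85.8 ± 16.2 FPKM in control mice, and it and *Fabp4*, the 2 tested markers, were higher in control mice. The sum thus followed *Cidec*, and the 6 markers did not move together, so it gives no direction for adipocytes as such. The part of adipocytes in the *Cfd* level was not tested.

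*Cfb*, the gene of factor B, was low, at 3.34 ± 0.283 FPKM in ND-fed and 2.63 ± 0.198 FPKM in control mice (-0.26, limma adjusted p = 0.0393). This call was lost without any one of 4 mice, ND 1, ND 2, control 2 or control 3 (adjusted p = 0.0789 to 0.114), in voom on recovered fragments (-0.34, adjusted p = 0.061) and after rescaling to TPM (-0.10, adjusted p = 0.542). It was also lost in limma with no filter on low values (adjusted p = 0.0775) and with only the 2 groups compared (0.058). A gene model on the same strand, *Gm20547*, shares 79.5% of the exonic bases of *Cfb* and 42.8% of those of *C2*, and how shared fragments were counted is not given in the sources used here, so the levels of *Cfb* and *C2* may cover only a portion of their transcripts. *Cfp*, which encodes properdin, the stabilizer of the alternative convertase, did not pass the test (17.04 ± 2.80 FPKM in ND-fed, 19.1 ± 0.647 FPKM in control mice, 0.17, limma adjusted p = 0.409).

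The 7 genes of classical initiation split by component, with 3 higher, 2 lower and 2 not past the test. *C1ra*, the gene of the protease C1r, had 93.1, 86.4 and 101 FPKM in ND-fed mice, 53.2, 56.8 and 52.5 FPKM in control mice, 63.7, 66.5 and 70.0 FPKM in HYA-treated mice and 54.3, 52.8 and 57.3 FPKM in LA-treated mice. Control and LA-treated mice overlapped, HYA-treated mice were above both, and ND-fed mice were highest. The difference between control and ND-fed mice was -0.77 (SE 0.07, limma adjusted p = 1.52e-05). Its partner protease gene *C1s1* had 160.1 to 191 FPKM over all 12 mice, and -0.15 between control and ND-fed mice (95% interval -0.29 to -0.00, adjusted p = 0.101, and -0.20 with adjusted p = 0.0396 without ND mouse 1). Both proteases have close paralogs in mouse, *C1rb* and *C1s2*, to which fragments may be misassigned. Few fragments were assigned to these paralogs, at most 13 and 15 in a mouse, with means of 0.157 and 0.0671 FPKM over all 12 mice. *C1s1* also shares 18.4% of its exonic bases with a gene on the opposite strand, *Gm16567*, and whether counting used strand is not given in the sources used here.

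*C2*, the protease of the C3 convertase, fell from 8.49 ± 0.429 FPKM with ND to 5.17 ± 0.682 FPKM with HFD alone (-0.63, SE 0.08, limma adjusted p = 2.78e-04). *C4b*, the partner of C2 in the C3 convertase, had 275 ± 15.8 FPKM and 254 ± 12.7 FPKM, a difference of -0.11 (95% interval -0.33 to 0.10, adjusted p = 0.404). *C4b* and *C4a* are near-identical copies, so fragments can be exchanged between them, and *C4a*, at 17.6, 21.3 and 8.40 FPKM in ND-fed and 3.90, 6.12 and 3.17 FPKM in control mice, differed by -1.58 (limma adjusted p = 0.00296).

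The 3 chains of C1q, the recognition molecule of the classical pathway, rose. *C1qb* had 58.7, 38.2 and 50.02 FPKM in ND-fed mice, 78.7, 68.6 and 83.6 FPKM in control mice, 71.2, 54.8 and 52.4 FPKM in HYA-treated mice and 74.2, 68.2 and 73.1 FPKM in LA-treated mice. Control mice were above all ND-fed mice, HYA-treated mice reached from the ND range into the control range, and ND mouse 2 was lowest of all. The log2 difference between control and ND-fed mice was 0.66 (SE 0.15, limma adjusted p = 0.00686). *C1qc* differed by 0.51 (adjusted p = 0.0217) and *C1qa* by 0.37 (adjusted p = 0.0377), also without overlap. The calls of *C1qa* and *C1qc* depended on single mice. Without ND mouse 2 they were 0.25 (adjusted p = 0.141) and 0.33 (0.0679), without control mouse 1 0.37 (0.0886) and 0.48 (0.0686), and without control mouse 3 0.32 (0.103) and 0.48 (0.0564), all from limma. With all mice kept, *C1qa* was also not called in limma with no filter on low values (adjusted p = 0.0759) or with only the 2 groups compared (0.0535).

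Both anaphylatoxin receptors were low and higher in control mice. *C5ar1*, the C5a receptor of neutrophils and macrophages, had 0.554, 0.343 and 0.411 FPKM in ND-fed mice, 1.47, 1.11 and 1.90 FPKM in control mice, 1.44, 0.708 and 1.04 FPKM in HYA-treated mice and 1.11, 1.37 and 1.43 FPKM in LA-treated mice. All HFD-fed mice were above all ND-fed mice, and the 3 HFD groups overlapped. Its log2 difference between control and ND-fed mice was 0.79 (SE 0.14, limma adjusted p = 0.00185), with 14 fragments in the lowest mouse. *C3ar1*, the C3a receptor, had 1.203, 0.673 and 0.827 FPKM in ND-fed and 2.04, 1.07 and 2.21 FPKM in control mice. Control mouse 2 lay inside the ND range. The difference of *C3ar1* was 0.53 (SE 0.16, limma adjusted p = 0.0262) and was not called without ND mouse 2, ND mouse 3, control mouse 1 or control mouse 3 (0.41 to 0.50, adjusted p = 0.0699 to 0.0971). Nor was it called in limma with no filter on low values (adjusted p = 0.0605) or with only the 2 groups compared (0.0852).

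Macrophage and neutrophil markers were set beside the C1q chains and receptors. Of 8 markers of resident Kupffer cells, *Cd5l* and *Cd68* exceeded the ND level in control mice, *Marco* and *Timd4* were lower, and 4 did not pass the test, with *Clec4f* at 44.7 ± 7.15 FPKM in ND-fed and 43.8 ± 3.62 FPKM in control mice. Their summed level was 147 to 239 FPKM in ND-fed and 201 to 218 FPKM in control mice, with ND mouse 2 lowest. Of 8 markers of recruited macrophages 4 could be tested and all 4 (*Lyz2*, *Cd9*, *Itgax* and *Gpnmb*) were higher in control mice. Their summed level was 65.6 to 85.1 FPKM in ND-fed mice, 100.8 to 135 FPKM in control mice, 79.1 to 103 FPKM with HYA and 107 to 118 FPKM with LA, so control mice did not overlap with ND-fed mice. The 5 neutrophil markers together reached 1.33 to 2.35 FPKM in mice on ND, 3.31 to 7.09 FPKM in control mice, 1.31 to 6.18 FPKM with HYA and 3.01 to 3.89 FPKM with LA, with *Ly6g* listed at 0 in every ND-fed and control mouse. Control mice did not overlap with ND-fed mice in this sum. Only 1 of the 5 markers could be tested, and it was not called in control against ND-fed mice (log2 difference 0.72, with overlap). The part of these cells in the levels of the C1q chains and receptors was not tested.

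**Figure D3:**
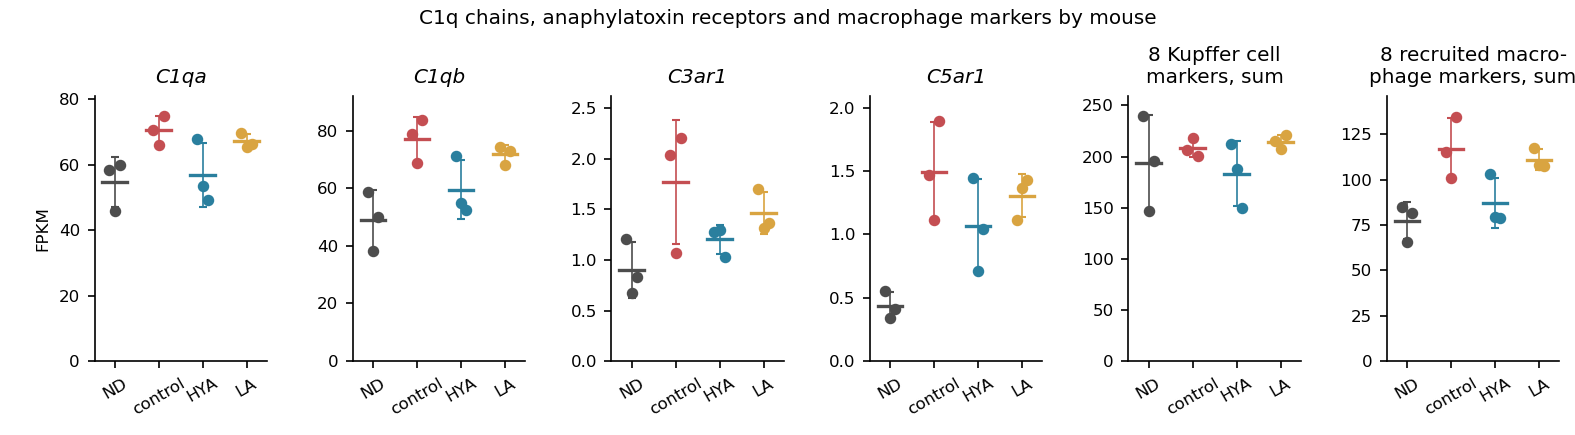
FPKM (y axes, linear from 0) of *C1qa*, *C1qb*, *C3ar1* and *C5ar1*, and the summed FPKM of 8 Kupffer cell and 8 recruited macrophage markers, in each of the 12 mice by diet group, with the mean as a line and the SD as a bar. Control mice lie above ND-fed mice in *C1qa*, *C1qb*, *C5ar1* and the recruited macrophage sum, but their Kupffer cell sum of 201 to 218 FPKM lies within the ND range of 147 to 239 FPKM.

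All 5 tested genes of lectin initiation were called, 4 lower and 1 higher in control mice. Mouse liver makes 2 mannose-binding lectins, and they moved in opposite directions. *Mbl1* had 137, 139 and 130.4 FPKM in ND-fed mice, 77.3, 81.7 and 91.6 FPKM in control mice, 110.5, 97.7 and 91.9 FPKM in HYA-treated mice and 94.5, 100.4 and 84.2 FPKM in LA-treated mice. *Mbl2* had 211, 212 and 219 FPKM in ND-fed mice, 283, 312 and 291 FPKM in control mice, 313, 326 and 325 FPKM in HYA-treated mice and 289, 319 and 318 FPKM in LA-treated mice. For both genes ND-fed mice were separate from every HFD-fed mouse, above them for *Mbl1* and below them for *Mbl2*. Control mice differed from ND-fed mice by -0.70 for *Mbl1* (SE 0.09, limma adjusted p = 1.97e-04) and by 0.46 for *Mbl2* (SE 0.06, adjusted p = 1.58e-04).

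*Fcna* encodes ficolin A, another lectin that starts this pathway, and had 44.6, 29.9 and 41.6 FPKM in ND-fed and 21.1, 30.6 and 19.0 FPKM in control mice. It differed by -0.70 (SE 0.17, limma adjusted p = 0.00933), although ND mouse 2 was below control mouse 2. *Masp1* and *Masp2*, the genes of the lectin-bound proteases, were also lower, with differences of -0.30 (adjusted p = 0.012) and -0.28 (adjusted p = 0.0194) in limma, at 17.7 ± 0.883 FPKM and 63.9 ± 7.005 FPKM in control mice. After rescaling to TPM they were at -0.07 (adjusted p = 0.528) and -0.05 (0.646) and no longer called, and the *Masp2* call was also lost without ND mouse 3, control mouse 1 or control mouse 3 (-0.27 to -0.21, adjusted p = 0.054 to 0.0664). With only the 2 groups compared, the limma adjusted p-value of *Masp2* was 0.0543. *Masp2* shares 54.9% of its exonic bases with *Tardbp* on the opposite strand. Whether counting used strand, and how shared fragments were counted, is not given in the sources used here, so the level of *Masp2* may be affected.

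Among the regulators, the 3 secreted proteins were lower in control mice and the 2 membrane proteins did not pass the test. *Serping1*, the gene of C1 inhibitor, had 323, 315 and 352 FPKM in ND-fed mice, 213, 255 and 249.8 FPKM in control mice, 281, 282 and 284 FPKM in HYA-treated mice and 231, 235 and 218 FPKM in LA-treated mice. HYA-treated mice were above all control and LA-treated mice and below all ND-fed mice. Control and ND-fed mice differed by -0.47 (SE 0.07, limma adjusted p = 6.89e-04). *Cfi*, the protease that inactivates C3b and C4b, fell from 253 ± 3.79 FPKM to 193 ± 10.3 FPKM (-0.39, adjusted p = 3.32e-04), and *C4bp*, the gene of the C4b-binding protein, from 88.5 ± 5.69 FPKM to 71.5 ± 3.96 FPKM (-0.30, adjusted p = 0.00272, and -0.07 with adjusted p = 0.35 after rescaling to TPM). *Cd59a*, which blocks the pore on host membranes, had 35.2 to 42.0 FPKM in ND-fed and 36.8 to 39.5 FPKM in control mice (-0.01, adjusted p = 0.892). *Cd55*, which dissociates convertases, had 3.71 to 4.34 FPKM and 3.66 to 5.16 FPKM (0.06, adjusted p = 0.696).

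Because the groups differed in the scale of FPKM against TPM, ratios between complement genes within each mouse were also computed, which no scaling can move. The 5 pairs of genes were chosen after their levels had been seen. *C8b* over *C8a* was 0.473 ± 0.00887 (SD, n = 3) in ND-fed mice, 0.170 ± 0.0229 in control mice, 0.246 ± 0.00890 with HYA and 0.148 ± 0.0206 with LA. Control and ND-fed mice did not overlap in this ratio, nor did HYA-treated mice overlap with control or LA-treated mice. *C6* over *C9* was 0.375 ± 0.00530 in ND-fed mice, 0.295 ± 0.0255 in control mice, 0.410 ± 0.00562 with HYA and 0.332 ± 0.0348 with LA, so that HYA-treated mice were above every other group, ND-fed mice included. *C1ra* over *C1s1* was 0.511 ± 0.0512, 0.328 ± 0.0250, 0.403 ± 0.00748 and 0.311 ± 0.0233 in the same order of groups. *Mbl2* over *Mbl1* was 1.58 ± 0.0848 in ND-fed and 3.55 ± 0.335 in control mice, and it was 3.24 ± 0.359 with HYA and 3.34 ± 0.383 with LA, where it overlapped with control mice. *C1qb* over *C1qa* was 0.892 ± 0.0990 in ND-fed and 1.09 ± 0.0442 in control mice. With 3 mice per group the exact two-sided permutation test cannot go below p = 0.1, which each non-overlapping pair among the 4 comparisons tested reached (control with ND-fed, HYA- and LA-treated with control, and HYA- with LA-treated mice), and after Benjamini-Hochberg adjustment over the 20 tests these values were 0.182. HYA- or LA-treated mice were not tested against ND-fed mice in these ratios.

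**Figure D4:**
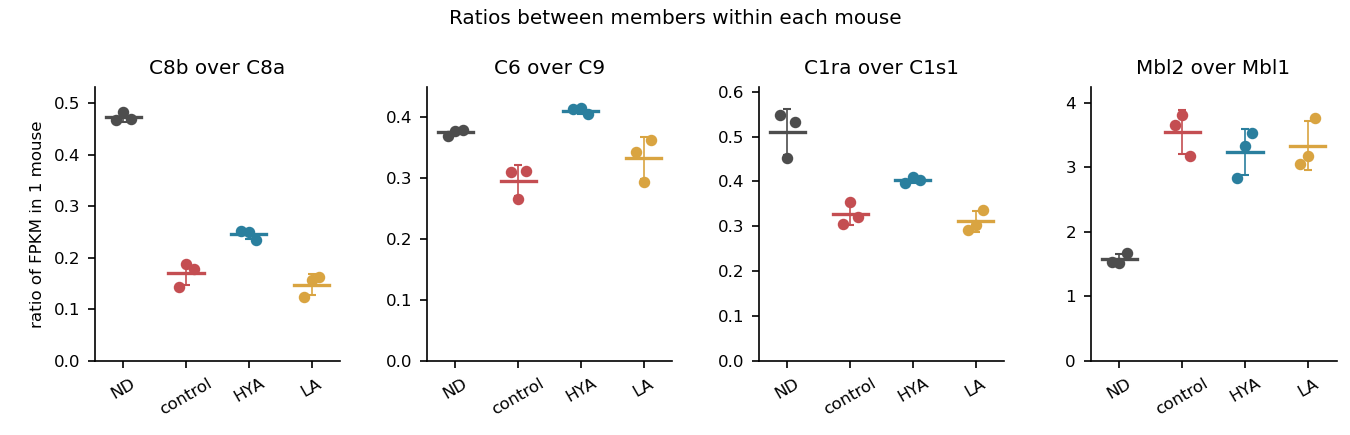
Ratios of the FPKM of 2 complement genes within each of the 12 mice (y axes, linear from 0) by diet group, with the mean as a line and the SD as a bar. *C8b* over *C8a* is highest in ND-fed mice and higher in HYA-treated mice (mean 0.246) than in control (0.170) and LA-treated mice (0.148), whereas *Mbl2* over *Mbl1* separates ND-fed mice from all HFD-fed mice.

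The comparison of HYA-treated with control mice asks what HYA changed on the HFD background. *C8b* was 1.80 times, *C6* 1.34 times and *C1ra* 1.23 times the control level. These were the 3 genes called higher of 29 (10.3%, against 1.57% of all genes tested), and 0 were called lower in limma (against 1.23%), with 7 higher and 3 lower at an unadjusted p-value under 0.05 (18.5% of all genes in either direction) and 0 lower in voom on recovered fragments. The median log2 difference over the 29 genes was 0.12, beside 0.02 over all genes, and these medians were -0.01 and -0.09 after rescaling to TPM. In FPKM, the levels of HYA-treated mice lay wholly above those of control mice for 12 genes (12.7% of all genes) and wholly below for 1 gene, *Cfp* (8.87%). The column sums of FPKM were also all higher in HYA-treated mice (380803 to 393109) than in control mice (342146 to 368132). These counts without overlap were not repeated in TPM.

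*C8b* differed by 0.83 between HYA-treated and control mice (SE 0.11, limma adjusted p = 0.0141). *C6* differed by 0.41 (SE 0.09, adjusted p = 0.0406) and *C1ra* by 0.30 (SE 0.07, adjusted p = 0.0463). Without HYA mouse 2 none of the 3 was called in limma, with adjusted p = 0.0671 for *C8b*, 0.131 for *C6* and 0.161 for *C1ra*, at log2 differences of 0.85, 0.44 and 0.30, and no gene of the table was called without this mouse. *C6* was also lost without any other mouse of the 2 groups (0.36 to 0.47, adjusted p = 0.0591 to 0.145) and *C1ra* without control 1, control 3, HYA 1 or HYA 3 (0.26 to 0.33, adjusted p = 0.0702 to 0.17). After rescaling to TPM only *C8b* was called (0.73, adjusted p = 0.012). Of the 7 hepatocyte markers *Cyp2e1* and *Apoh* were higher in HYA-treated mice, with a summed level of 40074 to 42811 FPKM against 31418 to 36065 FPKM in control mice, and their part in the complement levels was not tested.

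Other components did not pass the test against control mice. *C8a* differed by 0.32 (limma adjusted p = 0.0996), *C8g* by 0.32 (0.166), *Serping1* by 0.24 (0.103) and *C3* by 0.14 (0.309), each without overlap between the groups. *Hc* and *C9* differed by 0.07 (95% interval -0.08 to 0.22) and -0.06 (-0.25 to 0.13). The C1q chains were at -0.38 to -0.32 (adjusted p = 0.192 to 0.213), and *C3ar1* and *C5ar1* at -0.31 (0.34) and -0.27 (0.341). Without control mouse 2 the difference of *C3ar1* was -0.51 with an adjusted p of 0.0424 in limma. Of the recruited macrophage markers *Cd9*, *Itgax* and *Gpnmb* were below the control level in HYA-treated mice.

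LA, the parent fatty acid at the same 1%, was compared with control mice in the same way. In LA-treated mice 0 of the 29 complement genes were called in limma in either direction (0% of all genes tested, with 0 genes called), 0 had an unadjusted p-value under 0.05 (2.65% of all genes), and 0 were called in voom on recovered fragments. The differences ran from -0.15 for *C3ar1* to 0.46 for *Cfd*, where the 95% interval was -0.41 to 1.33. *C8b* differed by -0.12 (95% interval -0.36 to 0.12). LA-treated mice did not overlap with control mice only for *C1qc*, where they were below, beside 3.61% of all genes below and 3.94% above.

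HYA- and LA-treated mice were compared directly. *C8b* reached 1.99 times the LA level in HYA-treated mice, a log2 difference of 0.94 (SE 0.11, limma adjusted p = 0.0183), with all 3 HYA-treated mice above all 3 LA-treated mice. It was the 1 complement gene called higher (3.45%, against 0.235% of all genes tested), and 0 were called lower (against 0.253%), with 9 higher and 0 lower at an unadjusted p-value under 0.05 (17.2% of all genes in either direction) and 0 lower in voom on recovered fragments. The call of *C8b* was lost without HYA mouse 2, LA mouse 1 or LA mouse 2 (0.92 to 0.97, adjusted p = 0.0799 to 0.11). The next were *Serping1* (0.31, adjusted p = 0.0728), *C8g* (0.29, 0.23), *C6* (0.29, 0.13) and *C1ra* (0.28, 0.0741), each with HYA-treated mice wholly above LA-treated mice in FPKM and none past the threshold. After rescaling to TPM these differences were 0.19, 0.17, 0.17 and 0.16 in the same order. Without overlap in FPKM, HYA-treated mice were higher for 9 genes (14.8% of all genes) and lower for 1, *C3ar1* (10.4%). These counts were not repeated in TPM, and column sums of FPKM were 380803 to 393109 in HYA-treated and 352290 to 361523 in LA-treated mice.

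This comparison shares no mice with that of control and ND-fed mice. Of the 18 complement genes lower in control than in ND-fed mice, 16 had a higher fitted level in HYA- than in LA-treated mice (88.9%), 8 without overlap (44.4%), at a median log2 difference of 0.16. Over all 2115 genes lower in control mice the shares were 81.3% and 37.6% and the median 0.10. Of the 6 genes higher in control mice 5 were below the LA level in HYA-treated mice (83.3%), beside 77.5% of all 1795 such genes. The shares among the complement genes were thus near those of all genes changed by HFD feeding. The direction depended on the scaling. For the TPM shares the gene sets stayed those called in FPKM, and only the difference between HYA- and LA-treated mice was rescaled. In TPM, 11 of the 18 genes lower in control mice were then above the LA level (61.1%, beside 49.7% of all such genes). All 6 of the 6 higher genes were below it (90.3% of all such genes). Called in TPM, 13 complement genes and 732 of all genes were lower in control than in ND-fed mice.

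Against ND-fed mice, HYA-treated mice had 11 complement genes lower (37.9%, against 7.85% of all genes tested) and 2 higher, *Mbl2* and *C5ar1* (6.90%, against 8.72%). LA-treated mice had 16 lower (55.2%, against 16.6%) and 3 higher (10.3%, against 14.4%). After rescaling to TPM, LA-treated mice had 11 lower and 7 higher, while all genes split into 618 lower and 3615 higher. HYA-treated mice had 10 lower and 3 higher in TPM, beside 412 lower and 1623 higher over all genes. *C8b* differed from the ND level by -1.81 in HYA-treated mice (SE 0.11, limma adjusted p = 3.38e-06) and by -2.75 in LA-treated mice (SE 0.11, adjusted p = 8.88e-08). *C8g* was at -0.11 in HYA-treated mice (95% interval -0.36 to 0.14, adjusted p = 0.552) and -0.40 in LA-treated mice (adjusted p = 0.0228), where the call was lost without ND 2, ND 3, LA 1 or LA 3 (adjusted p = 0.0592 to 0.0867), with no filter on low values (0.0511) and in TPM (-0.17, 0.201). *C3* was at -0.77 (adjusted p = 4.01e-05) and -0.93 (5.94e-06), and *Mbl2* at 0.58 (8.94e-05) and 0.52 (8.49e-05). The call of *C5ar1* in HYA-treated mice (0.51, adjusted p = 0.0344) was lost without ND 2, ND 3, HYA 1 or HYA 3 (0.38 to 0.51, adjusted p = 0.0777 to 0.115). It was also lost in limma with no filter on low values (0.0829) and with only the 2 groups compared (0.0625). The call of *C4bp* as lower in HYA-treated mice (-0.19) was lost in 9 of 13 settings, among them TPM (-0.09, limma adjusted p = 0.329).

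A further 30 complement genes outside the list were counted, of which 21 could be tested. In control against ND-fed mice 9 were lower (42.9%, against 19.1% of all genes tested) and 4 higher (19.0%, against 16.2%). Among the lower genes were *Susd4*, a membrane inhibitor (12.8 ± 0.506 FPKM against 2.68 ± 0.527 FPKM, log2 difference -1.91, limma adjusted p = 2.43e-06), *Vtn*, whose product vitronectin keeps the terminal complex from inserting (-0.73, 5.02e-05), *Cpn2*, a subunit of the carboxypeptidase that inactivates anaphylatoxins (-0.55, 1.41e-04), *C4a* and *C1rl* (-0.27, 0.00891, and -0.04, 0.617 in TPM). Higher were the collectin gene *Colec11* (0.77, 9.82e-04), the complement receptor chains *Itgax* (1.29, 4.46e-05) and *Itgb2* (0.53, 0.0141, and 0.42, 0.057 without ND mouse 2), and *Cd93* (0.86, 4.42e-04).

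In HYA-treated against control mice 4 of these 21 genes were higher (19%, against 1.57% of all genes tested) and 1 lower (4.76%, against 1.23%). *Susd4* had 2.19, 3.24 and 2.60 FPKM in control mice, 4.04, 4.60 and 4.34 FPKM in HYA-treated mice and 2.03, 2.05 and 3.06 FPKM in LA-treated mice, with HYA-treated mice above all mice of both other groups. Its log2 difference was 0.54 against control mice (limma adjusted p = 0.0478) and 0.67 against LA-treated mice (adjusted p = 0.0477). The latter call was lost without any one of the 6 mice except LA mouse 3 (0.60 to 0.71, adjusted p = 0.085 to 0.239). *Itgax* differed by -0.67 (adjusted p = 0.0304), a gene that is also among the recruited macrophage markers above. The call of *Susd4* against control mice was lost without any one of the 6 mice except control mouse 2 (0.45 to 0.58, adjusted p = 0.0791 to 0.182) and in TPM (0.52, 0.0609), and that of *Itgax* without control mouse 1, control mouse 3, HYA mouse 2 or HYA mouse 3 (-0.64 to -0.62, adjusted p = 0.0825 to 0.135). In LA-treated against control mice 0 of the 21 genes were called in limma (0% of all genes tested), and 0 had an unadjusted p-value under 0.05 (2.65% of all genes).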

How the data were processed

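Liver RNA-seq libraries of 12 mice were analysed from the deposited FPKM of each gene. According to the submitters' processing notes, the authors used fastp, HISAT2 2.0.5 and featureCounts 1.5.0-p3 on GRCm38. Column sums of 342146 to 429286 differed between mice, so the values are FPKM and not TPM. FPKM times gene length gave whole fragments for 100% of values (tolerance 0.05), with a median of 19610557 fragments per mouse. Of 54409 identifiers shared with GENCODE M21, 98.33% had identical coordinates.

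Differences were tested with limma 3.58.1 in R 4.3.3 on log2(FPKM + 1) with all 12 mice in 1 fit, an empirical Bayes trend, genes averaging at least 1 FPKM, and Benjamini-Hochberg adjustment. Alternatives were a pseudocount of 0.1, no filter, TPM, median-ratio size factors, voom on recovered fragments, fits of only the 2 groups compared, a replicate block, a fold threshold, and leaving out each mouse. Scripts were tested on simulated data. All 30 genes are named, and other complement genes where called, of which some are not reported here. The genes, lists and tests were chosen with earlier results of these data known.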

Additional observations from a re-analysis of the deposited data

How the results depend on the processing

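Numbers of complement genes called depended on a fold threshold, on rescaling to TPM and on single mice. With a log2 fold above 1 required as well, 0 genes were higher and 4 lower in control against ND-fed mice, 0 higher in HYA-treated against control, 0 higher in HYA- against LA-treated, 0 higher and 1 lower in HYA-treated against ND-fed, and 0 higher and 2 lower in LA-treated against ND-fed mice. With no filter on low values, 1 gene was higher in HYA-treated against control, 0 against LA-treated and 1 against ND-fed mice. Over all genes 41, 0 and 800 were then higher. In control against ND-fed mice 4 were then higher and 17 lower, beside 2264 and 1938 of all genes. With only the 2 groups compared in the fit, 0 were higher in HYA-treated against control mice, where no gene of the table was called. Against ND-fed mice 1 was higher with HYA, beside 810 of all genes. The same setting gave 4 higher and 16 lower in control against ND-fed mice, beside 1422 and 1474 of all genes. Rescaled to TPM, 1 was higher in HYA-treated against control mice, beside 97 of all genes. In LA-treated against ND-fed mice 7 were higher and 11 lower, beside 3615 and 618 of all genes. In control against ND-fed mice 13 were lower, beside 732 of all genes. TPM also reversed *Cd59a* (0.22, adjusted p = 0.0232), *Clu* (0.21, 0.0233) and *C1qbp* (0.18, 0.0326) in control against ND-fed mice and *C4bp* (0.021, 0.799) in LA-treated against ND-fed mice, and the median over all genes moved by a like amount.

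Leaving out 1 mouse at a time gave 3 to 6 genes higher and 16 to 18 lower in control against ND-fed mice, 3 of them higher without ND 2, control 1 or control 3. It gave 0 to 2 higher and 0 to 1 lower in HYA-treated against control mice, 0 to 1 higher in HYA- against LA-treated mice, 1 to 2 higher and 10 to 11 lower in HYA-treated against ND-fed mice, and 2 to 4 higher and 13 to 14 lower in LA-treated against ND-fed mice. Over all genes, leaving out a mouse gave 1364 to 1668 higher and 1459 to 1928 lower in control against ND-fed mice. HYA-treated against control mice had 0 to 377 higher and 0 to 276 lower, and HYA- against LA-treated mice 0 to 9 and 0 to 11. Against ND-fed mice these ranges were 667 to 856 and 526 to 714 with HYA, and 1250 to 1462 and 1319 to 1576 with LA. LA-treated against control mice gave 0 complement genes under every alternative. Median-ratio size factors, a pseudocount of 0.1 and voom kept each number of called complement genes within 1.5 times.

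Replicate numbers gave no clear pairing over all groups. Correlations of deviations from the group means were -0.396 to 0.294 over 18 same-number pairs and -0.375 to 0.393 over pairs of unlike number. Between HYA- and LA-treated mice the same-number pairs had 0.218, -0.003 and 0.294, and the other pairs -0.290 to 0.083, so some pairing there is not excluded. With the replicate block, 6 complement genes were higher and 18 lower in control against ND-fed mice, beside 1777 and 2015 of all genes. HYA-treated against control mice gave 3 and 0, beside 253 and 196, and HYA- against LA-treated mice 1 and 0, beside 146 and 112. Against ND-fed mice the numbers were 2 and 10 with HYA, beside 964 and 839, and 4 and 17 with LA, beside 1564 and 1764. LA-treated against control mice gave 0 and 0, as over all genes. Depth limits *C7*, *C5ar1*, *C3ar1* and *Cfd*, which had as few as 13, 14, 46 and 15 fragments in a mouse.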
